A study of Mus musculus with 2 samples.

Results

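Killer cell lectin-like receptors of the Klr family, other than the Ly49 genes, were followed through the lymphoid and dendritic cells of livers carrying B16F10 melanoma metastases. The 8 genes were Klrb1c, Klrc1, Klrc2, Klrd1, Klre1, Klrg1, Klrk1 and Klri2, found by symbol among the 31253 genes of both count matrices. B16F10 is a mouse melanoma line. The groups were 1 library of live CD45+ cells from Vsig4 KO mice (Vsig4-/-) and 1 such library from WT mice, both from livers with metastases. The strain, age and sex of the mice, the time after tumour cell transfer, and how many mice each library holds are not given in the sources used here. VSIG4 is a complement receptor of liver macrophages. The deletion is not stated to be confined to a cell type.

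These receptors are C-type lectin-like proteins on natural killer (NK) cells and some T cells. Inhibitory members carry a signalling motif that restrains the cell, while activating members work through adaptor proteins such as DAP10 (Hcst) and DAP12 (Tyrobp). CD94 (Klrd1) forms a receptor for the class Ib molecule Qa-1 (H2-T23) together with NKG2A (Klrc1), which is inhibitory, or NKG2C (Klrc2), which is activating. The balance of activating and inhibitory signals is known to govern NK cell responses, in the liver as elsewhere.

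All 8 genes lie on mouse chromosome 6 (GENCODE M21, GRCm38, the same assembly as mm10). Klrg1 stands apart at 122270596 to 122282882 on the minus strand. The other genes occupy the NK gene complex. Klrb1c (minus strand) spans 128778485 to 128789215, Klre1 (plus) 129577905 to 129585827 and Klrd1 (plus) 129591782 to 129598775. Klrk1 (minus) spans 129610323 to 129623864, Klrc2 (minus) 129647496 to 129660689, Klrc1 (minus) 129666015 to 129678973 and Klri2 (minus) 129729041 to 129740484. Values below are counts over whole genes, so no exon or transcript form is resolved.

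The neighbouring genes Klrc1 and Klrc2 parted from each other in the results below, so the 250 bases before their annotated starts are shown. RefSeq (GRCm38.p6) gave such a stretch for 5 of the 8 genes. The Klrc1 stretch is chr6:129678974-129679223 and the Klrc2 stretch, before the first of its annotated starts, is chr6:129660597-129660846, both on the minus strand and written 5′ to 3′. Capitals mark matches to the RUNX core TGTGGT on either strand. Its reverse complement is ACCACA.
Klrc1: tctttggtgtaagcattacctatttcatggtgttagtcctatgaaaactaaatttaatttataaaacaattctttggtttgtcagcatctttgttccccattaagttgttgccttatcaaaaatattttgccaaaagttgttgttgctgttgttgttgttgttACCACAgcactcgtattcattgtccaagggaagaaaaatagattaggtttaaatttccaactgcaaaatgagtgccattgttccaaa
Klrc2: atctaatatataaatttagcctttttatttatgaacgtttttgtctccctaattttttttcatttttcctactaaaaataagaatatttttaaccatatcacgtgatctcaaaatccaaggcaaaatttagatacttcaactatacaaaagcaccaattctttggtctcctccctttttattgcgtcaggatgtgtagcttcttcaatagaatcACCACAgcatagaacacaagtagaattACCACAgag
Klrc1 had 1 match and Klrc2 had 2. Klrb1c, Klre1 and Klrk1 each had 1 before their first annotated start, so a match is not particular to Klrc1 or Klrc2. The GENCODE end of Klrc2 given above, its transcribed start, lies inside the Klrc2 stretch, which follows the RefSeq start. Both Klrc2 matches fall on the transcribed side of that GENCODE start. Of 32851 such stretches of 250 bases, 14% held a match. The T-box core TCACAC, searched on both strands, had 0 matches in either stretch and was in 12.3% of all stretches, so no match overlapped another motif. A match is a description of letters. Aligned end to end, the Klrc1 and Klrc2 stretches were 51.9% identical. Stretches of Klrc1 and Klrk1 were 51.3% identical by the same alignment, those of Klrb1c and Klre1 50.5%, and those of Klrc2 and Klrc3 70.8%. The longest coding sequences of Klrc1 and Klrc2 were 82.3% identical, with a longest identical run of 103 bases. Klrc2 and Klrc3 coding sequences were 89.3% identical with an identical run of 203 bases. Reads within such runs cannot be placed in 1 gene, so the split between Klrc1 and Klrc2 is uncertain to that extent.

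After filtering, 5482 Vsig4 KO and 6494 WT cells remained, with medians of 3264 and 3033.5 UMIs (unique molecular identifiers, each 1 captured transcript 5′ end) per cell. The Vsig4 transcript gave 3 UMIs in 3 Vsig4 KO cells, against 43 UMIs in 19 WT cells. The libraries shared 54 cell barcodes, of which 0 had identical profiles. Cells were gated on raw UMIs of Ncr1, Cd3d, Cd3e, Cd3g, Cd8a, Cd8b1, Xcr1 and Cd209a, with further genes to part the types, none of them one of the 8. The NK gate (Ncr1, no CD3, with Eomes, Itga2 or S1pr5 and without Itga1 or Cxcr6) held 229 Vsig4 KO and 256 WT cells. The ILC1 gate, with the reverse pattern, held only 13 and 10 cells, and 62 and 79 further Ncr1+ CD3- cells fell in neither. The NKT gate (CD3 and Zbtb16, without Trdc or Cd8) held 260 Vsig4 KO and 187 WT cells, the gamma-delta T gate (Trdc without Trac) 59 and 82, and the CD8 T gate 358 and 360. The Xcr1+ dendritic gate (cDC1) held 34 Vsig4 KO and 64 WT cells and the Cd209a+ gate 223 and 399. Markers not used for gating were compared over all 13 gates. The NK gate was the highest for 2 of its 4 markers in both libraries (Gzma and Prf1), the cDC1 gate for 3 of 5 (Clec9a, Naaa and Wdfy4) and the NKT gate for 2 of 3 (Icos and Trav11). The gamma-delta T gate was the highest for Trgc1, Trgc2 and Cd163l1 in both libraries and for Trgc4 in Vsig4 KO but not in WT. For the ILC1 gate this held for 1 of 4 in the Vsig4 KO and 3 of 4 in the WT library, and for the Cd209a+ gate, which is split further below, for 1 and 2 of 5. The CD8 T gate was not the highest for Cd5, the 1 marker left to it, at 116 CPM in Vsig4 KO and 127 CPM in WT cells, against 256 and 306 CPM in CD4 T cells.

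With 1 library per genotype there is no test of genotype, and levels are given as CPM, the UMIs of a gene per 1000000 UMIs of all cells in a gate, with exact 95% Poisson intervals. Ratios are Vsig4 KO over WT with exact 95% intervals. All intervals cover counting error only and not the spread between mice. Those of CPM and of ratios take each UMI as independent, so they also leave out the spread between cells. A ratio is called higher or lower when it passes 1.5-fold with at least 20 UMIs over both libraries. UMIs mark transcript 5′ ends, so CPM values were not scaled by length.

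In NK cells of the Vsig4 KO library, 2 of the 8 genes were past 1.5-fold, both higher: Klrg1 and Klrc1. No member was past 1.5-fold lower. Over all 7855 genes of the NK gate with at least 20 UMIs, 8.9% were at least 1.5-fold higher and 10.4% at least 1.5-fold lower. Klrg1, an inhibitory receptor for cadherins that is borne by mature NK cells, was at 165 CPM (140 to 194) in Vsig4 KO and 84.1 CPM (66.5 to 105) in WT NK cells. Its ratio was 1.97 (1.49 to 2.62). The Klrg1 UMIs came from 80 Vsig4 KO and 53 WT cells, and no cell held more than 8 UMIs in the Vsig4 KO or 6 in the WT library. Klrc1 was at 417 CPM (376 to 461) in Vsig4 KO and 272 CPM (239 to 308) in WT NK cells, a ratio of 1.53 (1.30 to 1.81). The value lies just past 1.5-fold, and its interval reaches below it. Among NK cells with at least 2 Ncr1 UMIs the Klrc1 ratio was 1.40 and the Klrg1 ratio 1.63.

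The other 6 genes stayed within 1.5-fold in the NK gate. Klrd1, the partner chain of both NKG2 proteins, was at 663 and 670 CPM in Vsig4 KO and WT cells (ratio 0.989, 0.883 to 1.11). Klrc2 was at 293 and 306 CPM (0.957, 0.807 to 1.14). The UMI ratio of Klrc1 to Klrc2 was therefore 1.42 (1.21 to 1.67) in Vsig4 KO and 0.887 (0.746 to 1.06) in WT NK cells, and these intervals do not overlap. Klrk1, which encodes the activating receptor NKG2D, was at 561 and 667 CPM (0.842, 0.747 to 0.948), below 1 but inside the 1.5-fold bound. Klrb1c, the NK1.1 antigen of C57BL/6 mice, was at 588 and 528 CPM (1.11, 0.983 to 1.26). Klre1, a lectin that pairs with the KLRI proteins in rodents, was at 788 and 770 CPM (1.02, 0.921 to 1.14). Klri2, its activating partner, was at 321 and 357 CPM (0.898, 0.765 to 1.06). Summed over the 8 genes, the NK gate held 3796 CPM in the Vsig4 KO and 3654 CPM in the WT library (1.04, 0.990 to 1.09), so the total was close in both. Klrc1 supplied 11.0% of these UMIs in Vsig4 KO and 7.44% in WT NK cells, Klrg1 4.36% and 2.30%, and Klrk1 14.8% and 18.2%, and the exact binomial intervals of these shares do not overlap between the libraries. The median log2 ratio of the 8 genes was 0.01.

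Counts of cells gave the same order for both genes with wider limits. Thinned to 1000 UMIs per cell, which left out 1 cell of each library, 28.5% (22.7 to 34.8) of Vsig4 KO and 21.2% (16.3 to 26.7) of WT NK cells had a Klrc1 UMI. For Klrg1 the shares were 15.4% (10.9 to 20.7) and 10.2% (6.77 to 14.6). These exact binomial intervals overlap for both genes. In B cells, which should lack them, the Klrc1 shares were 0.0737% and 0.0830%, and Klrg1 was seen in 0 of 1357 and 0 of 1205 cells, which allows shares of up to 0.221% and 0.249%. A typical NK cell showed a median of 3 of the 8 genes at this depth in both libraries. Unthinned, with median depths of 3458 UMIs in Vsig4 KO and 3141.5 in WT NK cells, Klrc1 was seen in 108 of 229 and 92 of 256 cells. Cells with a Klrc1 UMI at 1000 UMIs also had a Klrc2 UMI in 20% (11.1 to 31.8) of Vsig4 KO and 18.5% (9.25 to 31.4) of WT cases, against 23.9% (17.6 to 31.2) and 31.3% (25 to 38.2) of the cells without one. For Klrd1, the partner chain, 24.8% of Vsig4 KO and 18.5% of WT cells with a Klrd1 UMI had Klrc1, against 31.5% and 23.7% of those without, with overlapping intervals.

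**Figure D1:**
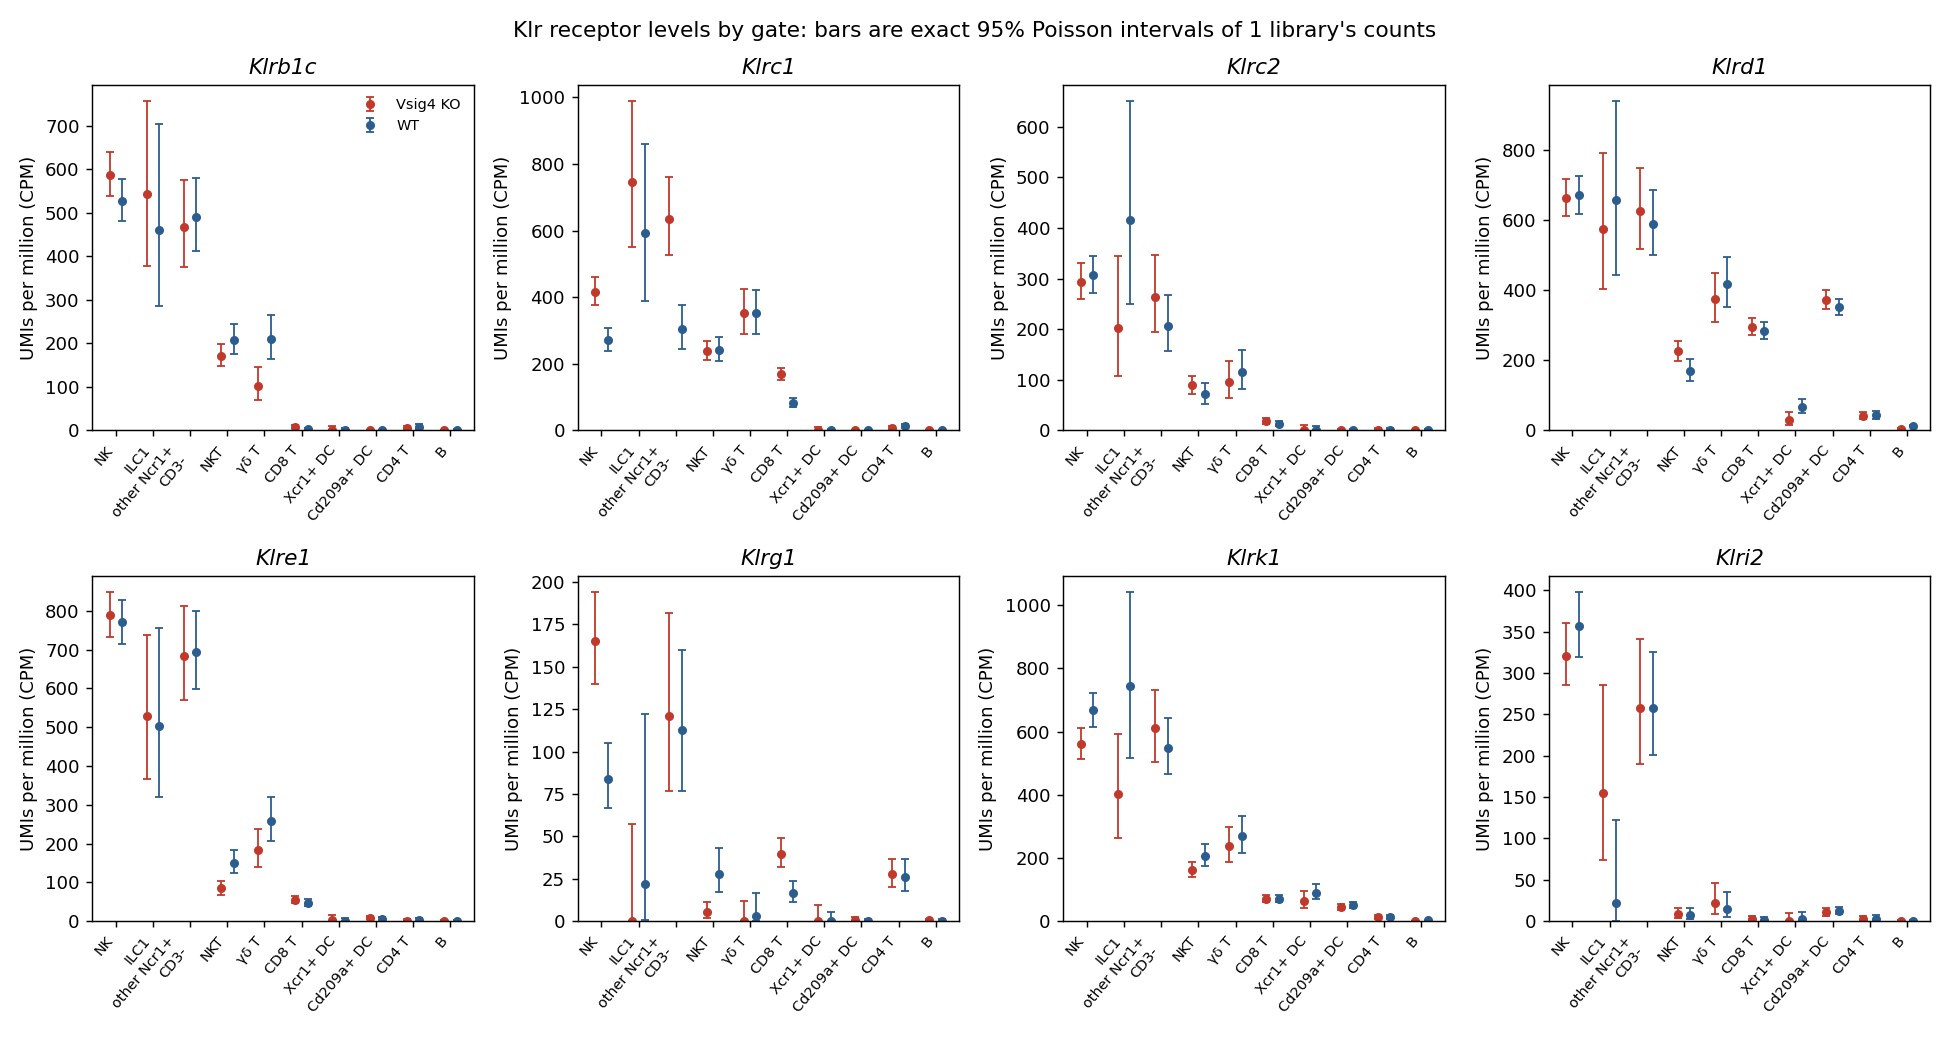
Level of each Klr gene in CPM (linear axis from 0) by gate, Vsig4 KO in red left of WT in blue; points are 1 library each and bars exact 95% Poisson intervals. Klrc1 and Klrg1 differ in the NK and CD8 T gates, and Klrd1 alone is also high in the Cd209a+ gate, at 372 CPM in Vsig4 KO and 352 CPM in WT cells.

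NK cells mature through stages marked by CD27 and then CD11b (Itgam), and the gate was split by UMIs of both genes. Cells with Itgam only made up 26.6% of Vsig4 KO and 25% of WT NK cells, and cells with Cd27 only 17.5% and 21.9%. In the Itgam-only cells, Klrg1 was at 286 CPM in Vsig4 KO and 142 CPM in WT (ratio 2.01, 1.31 to 3.13). In cells with neither gene seen it was at 149 and 75.5 CPM (1.98, 1.27 to 3.15). In Cd27-only cells it was at 48.1 and 55.8 CPM from 9 and 13 UMIs (0.862, 0.325 to 2.18). Klrg1 was thus highest in the Itgam-only cells of both libraries, where its ratio was close to that of the whole gate. The Klrc1 ratio was above 1 in all 4 classes, at 1.72 (1.23 to 2.42) in Cd27-only, 1.45 (1.04 to 2.03) in Itgam-only and 1.44 (1.14 to 1.83) in cells with neither, 2 of these 3 being within 1.5-fold. In the 12 Vsig4 KO and 12 WT cells with both genes it rested on 16 and 5 UMIs. Klrb1c passed 1.5-fold only among Cd27-only cells, at 583 CPM in Vsig4 KO and 378 CPM in WT (1.54, 1.15 to 2.07). Whether ratios differ between these classes was not tested.

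**Figure D2:**
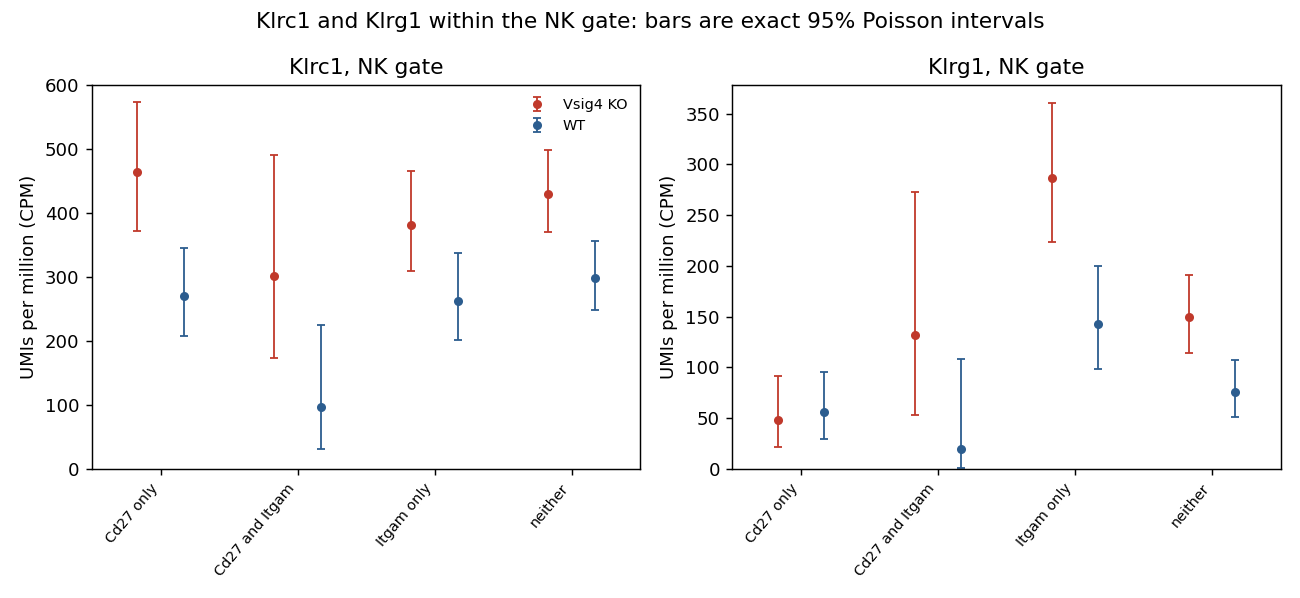
Klrc1 and Klrg1 level in CPM (linear axes from 0) within the NK gate, split by Cd27 and Itgam UMIs; Vsig4 KO in red left of WT in blue, bars exact 95% Poisson intervals. Klrg1 in cells with Itgam only is at 286 CPM in Vsig4 KO and 142 CPM in WT.

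The Ncr1+ CD3- cells outside both gates shared the Klrc1 difference. Klrc1 was at 636 CPM (528 to 760) in Vsig4 KO and 305 CPM (243 to 378) in WT cells, a ratio of 2.08 (1.57 to 2.79), and it was the only 1 of the 8 past 1.5-fold, where 12.8% of all genes were higher and 15.2% lower. Klrg1 was at 121 and 113 CPM there (1.07, 0.598 to 1.90). In the ILC1 gate 0 of the 6 testable genes were higher and 2 were lower, against 21.3% of all genes higher and 16.7% lower. Klrk1 had 26 UMIs in 13 Vsig4 KO cells and 34 in 10 WT cells (0.542, 0.312 to 0.930), and Klrc2 13 and 19 UMIs (0.485, 0.220 to 1.04). Few cells were counted, and with all Itga1 or Cxcr6 cells whatever their NK genes the ratios were 0.755 and 0.694. Klrg1 gave 0 UMIs in Vsig4 KO and 1 UMI in WT ILC1 cells, and Klrc1 48 and 27 UMIs (1.26, 0.770 to 2.10). Among signalling genes in the ILC1 gate, 3 of 6 measured were higher, the kinase gene Lck (24 and 6 UMIs) and the phosphatase genes Inpp5d (21 and 6) and Ptpn6 (16 and 5), while the NKG2D adaptor Hcst was lower (25 and 33 UMIs, 0.537). Klrb1f, an activating NKR-P1 receptor, had 6 and 15 UMIs and was the only 1 of 3 further lectins past 1.5-fold. Of 3 other receptors Cd160 was lower (26 and 33 UMIs, 0.558), and of 3 maturation factors Tbx21 was higher (26 and 9 UMIs, 2.05) and Tox lower (27 and 35, 0.547). None of 4 ligand genes passed 1.5-fold. The 6 ILC1 markers summed to 1056 CPM in Vsig4 KO and 1709 CPM in WT cells of this gate, with none at 0. Lower in Vsig4 KO were Il7r (124 and 570 CPM), Tnfsf10 (77.6 and 263), Cd200r1 (31.0 and 65.7) and the gate gene Itga1 (140 and 219). The other gate gene, Cxcr6, was higher (279 and 197 CPM), and Tmem176b was close in both (404 and 394 CPM). The 6 cDC1 markers summed to 481 and 110 CPM, all of it Irf8, and the 6 cDC2 markers to 186 and 21.9 CPM with Cd209a, Clec10a, Irf4 and Flt3 at 0 in both libraries. Trgc4, a gamma chain gene, was at 62.1 and 307 CPM, with Trgc2 and Cd163l1 at 0 in both. The part of these genes in the ILC1 values was not tested.

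Sums over marker lists of other cells differed between the libraries in the NK gate. The 5 monocyte and macrophage markers summed to 485 CPM in Vsig4 KO and 921 CPM in WT cells, with C1qa at 0 in the Vsig4 KO cells. Lyz2, the lysozyme of myeloid cells, was at 14.3 and 429 CPM, and Csf1r at 5.51 and 33.4 CPM. Not lower in Vsig4 KO were Cd14 (67.2 and 53.9 CPM) and Ly6c2 (398 and 380 CPM). The 3 neutrophil markers summed to 8.82 and 78.7 CPM, with Csf3r at 0 in Vsig4 KO cells. The 6 cDC1 markers summed to 1086 and 666 CPM, of which Irf8 made up 1074 and 635 CPM. Batf3 (2.20 and 8.63 CPM) and Naaa (5.51 and 18.3 CPM) went the other way. Xcr1, Clec9a and Wdfy4 were each at or under 3.31 CPM. Without the cells that held a UMI of Lyz2, Csf1r, C1qa or Ly6d, 214 Vsig4 KO and 216 WT NK cells remained, with a Klrc1 ratio of 1.68 and a Klrg1 ratio of 2.05. Over the whole gate these ratios were 1.53 and 1.97. The part of such genes in the NK values was not tested.

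Genes linked to the receptors were read in the NK gate by lists. Of the 12 adaptor and signalling genes, 0 were past 1.5-fold, with a median log2 ratio of -0.02. Over all genes of the gate it was -0.0018. The 12 further lectins of the complex had 7 with enough UMIs and 1 higher, Klrb1b, an inhibitory NKR-P1 receptor for Clec2d, at 171 CPM in Vsig4 KO and 108 CPM in WT cells (1.58, 1.22 to 2.06). Among 11 ligand genes, 6 were measured and 1 was lower, the NKG2D ligand Ulbp1, with 13 and 24 UMIs (0.554, 0.259 to 1.13). Of 9 other NK receptors, Cd226 was higher (1.51, 0.992 to 2.31), while Crtam (0.552, 0.332 to 0.898) and the Fc receptor gene Fcgr3 (0.657, 0.458 to 0.936) were lower. Of 9 maturation factors, Tbx21, which encodes T-bet, was at 337 CPM in Vsig4 KO and 205 CPM in WT cells (1.65, 1.37 to 1.98). Tcf7, the gene of the immature-stage factor TCF-1, was at 117 and 204 CPM (0.573, 0.447 to 0.731), and Tox at 133 and 214 CPM (0.625, 0.494 to 0.787). No other gene of this list passed 1.5-fold.

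**Figure D3:**
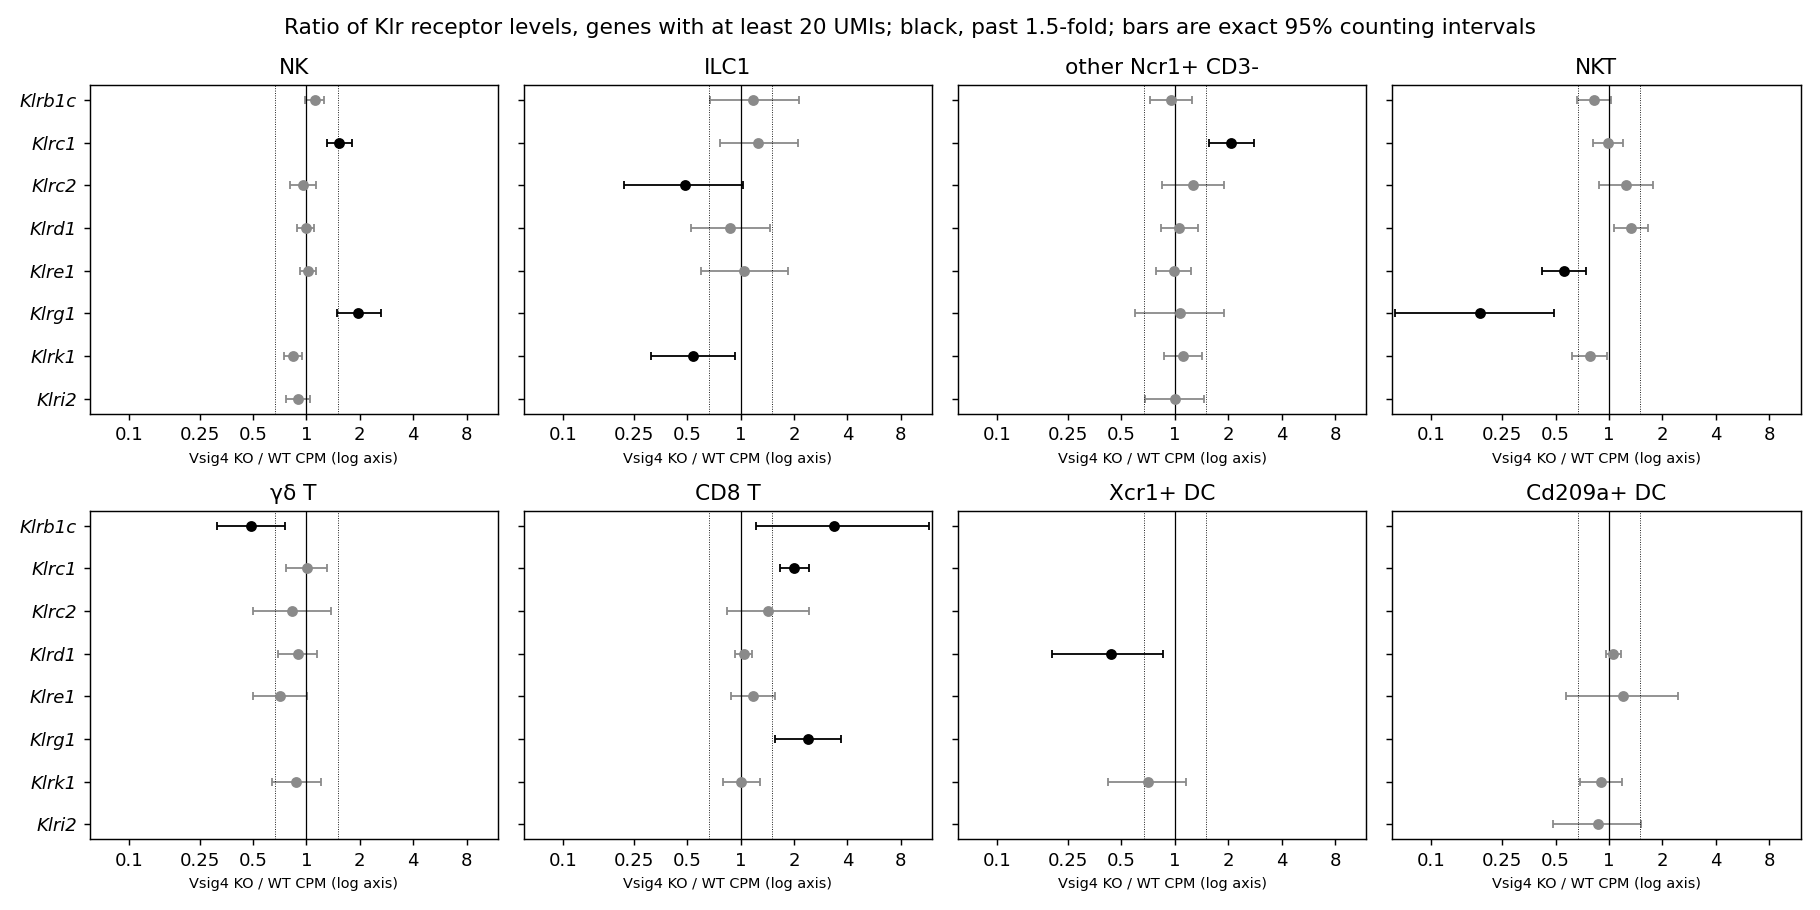
Ratio of Vsig4 KO to WT level (log axis) for each Klr gene with at least 20 UMIs, by gate; bars are exact 95% counting intervals, dotted lines mark 1.5-fold and black points lie past it. Klrc1 lies right of the line in the NK, other Ncr1+ CD3- and CD8 T gates, at 1.53, 2.08 and 2.01.

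In CD8 T cells, where inhibitory NKG2A is known on effector and chronically stimulated cells, 3 of the 7 testable genes were higher in the Vsig4 KO library and 0 lower. Over all 9438 genes of the gate, 6.6% were higher and 7.54% lower. The median log2 ratio was 0.51 for the 7 receptor genes and 0.01 for all genes. The 168 CPM of Klrc1 (151 to 186) in Vsig4 KO cells stood against 83.6 CPM (71.2 to 97.6) in WT cells, 2.01 times as high (1.67 to 2.44). Klrg1, a mark of short-lived effector CD8 T cells, had 39.6 CPM (31.7 to 48.9) in Vsig4 KO cells, against 16.6 CPM (11.4 to 23.5) in WT cells (2.38, 1.57 to 3.70). Klrb1c had 19 UMIs in Vsig4 KO and 5 in WT cells (3.37, 1.22 to 11.6), and the ratio was 1.82 when no cells were left out as doublets. Klrc1 UMIs came from 101 Vsig4 KO and 57 WT cells. Klrg1 UMIs came from 47 and 17 cells, and the 5 highest cells held 22 of the 86 Vsig4 KO and 20 of the 32 WT UMIs, 1 WT cell holding 7.

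The remaining genes of the CD8 gate differed less. Klrd1 was at 296 and 285 CPM (1.04, 0.926 to 1.17), so the UMI ratio of Klrc1 to its partner was 0.569 (0.499 to 0.647) in Vsig4 KO and 0.294 (0.245 to 0.351) in WT cells. Klrk1, a costimulatory receptor on CD8 T cells, was at 71.4 and 70.6 CPM (1.01, 0.798 to 1.28), Klre1 at 55.3 and 47.3 CPM (1.17, 0.883 to 1.55) and Klrc2 at 18.4 and 13.0 CPM (1.42, 0.840 to 2.44). Klri2 gave 7 and 4 UMIs. Thinned to 1000 UMIs, 11.5% (8.39 to 15.3) of Vsig4 KO and 3.90% (2.15 to 6.46) of WT CD8 T cells had a Klrc1 UMI, and these intervals do not overlap. Median depths before thinning were 5095.5 and 4433 UMIs. Cells with a Klrd1 UMI at this depth made up 26.4% (21.9 to 31.3) and 21.4% (17.3 to 26.1). None of the 8 genes was seen in 60.7% of Vsig4 KO and 70.2% of WT CD8 T cells at this depth.

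The 7 NK markers summed to 1414 CPM in Vsig4 KO and 662 CPM in WT cells of the CD8 gate, with none at 0. The difference came chiefly from Gzma, a granzyme of NK and effector T cells, at 1197 and 433 CPM. S1pr5 was at 11.5 and 5.19 CPM. Not higher in Vsig4 KO were Eomes (56.7 and 57.1 CPM), Itga2 (6.45 and 6.75), Prf1 (65.9 and 74.8), Tbx21 (74.2 and 79.4) and Itgam (2.76 and 6.23). Ncr1, the NK gene that T cells mostly lack, was at 7.37 and 6.75 CPM. The part of this list in the receptor values was not tested.

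Of 11 adaptor and signalling genes measured in the CD8 gate, 0 were higher and 3 lower, with a median log2 ratio of -0.28 against 0.01 for all genes. These were Tyrobp (58.0 CPM in Vsig4 KO, 117 CPM in WT), Fcer1g (56.7 and 127 CPM) and Syk (17 and 27 UMIs). Fcgr3, the 1 of 9 other receptors past 1.5-fold, had 7 and 17 UMIs, and 0 of 3 further lectins, 6 ligands and 9 maturation factors passed it. Tyrobp, Fcer1g, Syk and Fcgr3 are also expressed by macrophages, and Lyz2 was at 30.9 CPM in Vsig4 KO and 131 CPM in WT CD8 T cells. The 5 monocyte and macrophage markers summed to 956 and 1122 CPM with none at 0, of which Ly6c2 made up 898 and 906 CPM. Csf1r was at 3.69 and 13.5 CPM, Cd14 at 2.76 and 44.1 CPM and C1qa at 20.7 and 27.0 CPM. The part of such RNA in the adaptor values was not tested. Without the cells holding a UMI of Lyz2, Csf1r, C1qa or Ly6d, the Klrc1 ratio was 1.74 and the Klrg1 ratio 2.57 over 323 Vsig4 KO and 316 WT cells.

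In the NKT gate the Vsig4 KO library had 0 of 7 testable genes higher and 2 lower, against 9.69% of all genes higher and 11.7% lower, and the median log2 ratio was -0.28 for these 7 and -0.05 for all genes. Klre1 stood at 84.6 CPM (68.5 to 103) in Vsig4 KO, against 151 CPM (124 to 183) in WT cells, which is 0.559 (0.420 to 0.743) of the WT level. Klrg1 had 6 UMIs in Vsig4 KO and 20 in WT cells (0.189, 0.0620 to 0.487), 1 WT cell holding 7 of them; with any CD3 UMI asked for in place of 2 its ratio was 0.313. Klrd1 was at 226 and 169 CPM (1.33, 1.07 to 1.67), Klrc1 at 240 and 242 CPM (0.989, 0.815 to 1.20), Klrb1c at 172 and 209 CPM (0.823, 0.662 to 1.03) and Klrk1 at 161 and 207 CPM (0.778, 0.623 to 0.973). The NK marker list, at 483 CPM in Vsig4 KO and 959 CPM in WT cells with none of its 7 genes at 0, moved with these values. Gamma-delta T genes moved the same way, with Trgc1 at 96.9 and 164 CPM, Trgc2 at 55.5 and 102 CPM and Cd163l1 at 5.29 and 56.0 CPM, while Trdc, barred by the gate, was at 0 in both libraries. The 6 cDC2 markers summed to 50.2 and 88.2 CPM with Flt3 at 0 in both. The 3 neutrophil markers moved the other way, at 81.0 and 4.20 CPM with Csf3r at 0 in both. The part of these genes in the NKT values was not tested.

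The NKT values depended on how the cells were gated. Among 41 Vsig4 KO and 28 WT T cells with a UMI of Trav11 or Trav11d, the invariant alpha chain segment of type I NKT cells, Klre1 had a ratio of 1.87 and Klrg1 of 2.85, that of Klrg1 resting on 4 Vsig4 KO UMIs and 1 WT UMI. Among 33 Vsig4 KO and 45 WT T cells with an Ncr1 UMI, the ratio of Klre1 was 0.992 and that of Klrg1 was 1.1. Klre1 was thus lower by Zbtb16, higher by Trav11 and near level by Ncr1. Klrg1 was lower by Zbtb16 and near level by Ncr1, and its Trav11 value has too few UMIs to give a direction.

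Gamma-delta T cells had 1 of 6 testable genes past 1.5-fold, Klrb1c, which was lower, beside 15.8% of all genes higher and 13.5% lower. Klrb1c was at 103 CPM (70.2 to 145) in Vsig4 KO and 209 CPM (163 to 265) in WT gamma-delta T cells (0.490, 0.312 to 0.756), from 17 and 32 cells with a UMI. The other testable genes had ratios between 0.709 (Klre1) and 1.003 (Klrc1). The gate gene Trdc was at 417 CPM in Vsig4 KO and 692 CPM in WT cells and Trgc1 at 157 and 288 CPM, in the direction of Klrb1c. The 7 NK markers summed to 1152 and 1633 CPM with none at 0, a difference that came chiefly from Gzma (905 and 1357 CPM). S1pr5, Prf1 and Itgam were also lower in Vsig4 KO cells. Eomes was higher there, at 41.7 and 18.2 CPM from 13 and 6 UMIs, while Tbx21 (148 and 152 CPM) and Itga2 differed little. The 3 neutrophil markers summed to 6.42 and 100.2 CPM, with Csf3r at 0 in both libraries. The 6 cDC1 markers went the other way from Klrb1c, at 257 and 78.9 CPM, as did Ly6d, at 311 and 0 CPM, and Siglech, at 48.1 and 0 CPM. The part of these genes in the Klrb1c value was not tested. Without the cells holding a UMI of Lyz2, Csf1r, C1qa or Ly6d, the Klrb1c ratio was 0.572.

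Dendritic cells carried a different set of these genes. In the Cd209a+ gate Klrd1 was at 372 CPM (346 to 400) in Vsig4 KO and 352 CPM (331 to 374) in WT cells (1.06, 0.961 to 1.16), from 155 and 254 cells with a UMI. Its NKG2 partner Klrc1 and the NK gene Klrb1c gave 0 UMIs in both libraries, and Klrc2 gave 1 and 3 UMIs. The upper 95% limit of the UMI ratio of Klrc1 to Klrd1 was 0.00488 in Vsig4 KO and 0.00363 in WT cells. Nkg7, a granule gene of NK and CD8 T cells, was at 2.45 CPM in Vsig4 KO and 2.42 CPM in WT cells of this gate, against 3079 and 2544 CPM in the NK gate. Thinned to 1000 UMIs, 29.0% (23.1 to 35.4) of Vsig4 KO and 27.4% (23.005 to 32.1) of WT Cd209a+ cells had a Klrd1 UMI, with median depths of 8931 and 6987 UMIs before thinning. In B cells, which should lack the gene, the shares were 0.590% and 0.498% at median depths of 2930 and 2529 UMIs. Klrk1 was at 45.7 and 50.5 CPM (0.905, 0.690 to 1.18), Klri2 at 10.8 and 12.4 CPM (0.868, 0.486 to 1.52) and Klre1 at 7.86 and 6.57 CPM. Of the 4 testable genes, 0 were past 1.5-fold either way, against 7.02% of all genes higher and 5.93% lower.

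The Cd209a+ gate held distinct kinds of cell. By Siglech, a lectin gene of plasmacytoid dendritic cells, 132 Vsig4 KO and 275 WT cells had no UMI, 6 and 15 had 1, and 85 and 109 had at least 2. Cells with at least 2 had Tcf4 at 1979 and 2287 CPM and H2-Ab1, a class II gene, at 1132 and 837 CPM. Cells with none had Tcf4 at 182 and 194 CPM and H2-Ab1 at 7321 and 7490 CPM. Klrd1 was high in both kinds. It was at 425 CPM (378 to 475) in Vsig4 KO and 383 CPM (339 to 432) in WT cells with at least 2 Siglech UMIs (1.11, 0.936 to 1.31), and at 352 (320 to 387) and 321 CPM (297 to 346) in those with none (1.097, 0.970 to 1.24). The few cells with 1 Siglech UMI had 16 and 79 Klrd1 UMIs (0.276, 0.151 to 0.477), from 4 and 13 cells with a UMI. Klrk1 stood at 19.7 and 14.3 CPM in the Siglech cells, against 60.01 and 62.2 CPM in those without, and these intervals do not overlap in either library. Siglech+ cells without Cd209a held Klrd1 at 153 CPM (121 to 190) in Vsig4 KO and 275 CPM (239 to 314) in WT (0.556, 0.425 to 0.721). The Cd209a+ cells with at least 2 Siglech UMIs did not show this difference, while the few with 1 went the same way. Whether the ratio differs between these classes was not tested. In the cells without Cd209a the 5 CD8 T markers summed to 451 CPM in Vsig4 KO and 237 CPM in WT, with Cd3e, barred by the gate, at 0 in both. The 6 NKT markers summed to 378 and 241 CPM there, with all but Cd4 at 0 in both. The part of these markers in the Klrd1 value was not tested.

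The Xcr1+ gate had far less Klrd1 than the Cd209a+ gate. Klrd1 gave 11 UMIs in Vsig4 KO and 44 in WT cells, or 29.3 CPM (14.6 to 52.5) and 67.5 CPM (49.0 to 90.6), that is 0.435-fold (0.203 to 0.856). A single WT cell held 13 of these UMIs, and with at least 2 Xcr1 UMIs asked for the ratio was 0.741. It was 1 of 2 testable genes and lower past 1.5-fold, against 15.4% of all genes higher and 10.8% lower in that gate. Klrk1 was at 64.0 CPM (41.0 to 95.2) in Vsig4 KO and 90.5 CPM (68.9 to 117) in WT cells (0.708, 0.421 to 1.16). Its level was above that of the whole Cd209a+ gate beyond counting error in WT but not in Vsig4 KO cells. The whole gate includes cells with at least 2 Siglech UMIs, in which Klrk1 was lower. Against WT Cd209a+ cells with no Siglech UMI (62.2 CPM, 51.96 to 73.8), the Klrk1 interval of the WT Xcr1+ gate overlapped. The monocyte and macrophage markers in this gate summed to 2774 CPM in Vsig4 KO and 1445 CPM in WT cells with none at 0. Cd209a itself had 4 UMIs in Vsig4 KO and 43 in WT cells of the Xcr1+ gate (10.7 and 65.9 CPM), in the direction of Klrd1. The part of these genes in the Xcr1+ values was not tested. Cells with Ccr7 and Fscn1, genes of mature dendritic cells, had Klrd1 at 66.0 and 93.6 CPM and Klrk1 at 53.6 and 61.2 CPM, while Csf1r+ cells without Cd209a had Klrd1 at 15.6 and 9.34 CPM, from 2 and 14 cells with a UMI, and Klrk1 at 7.52 and 5.14 CPM.

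**Figure D4:**
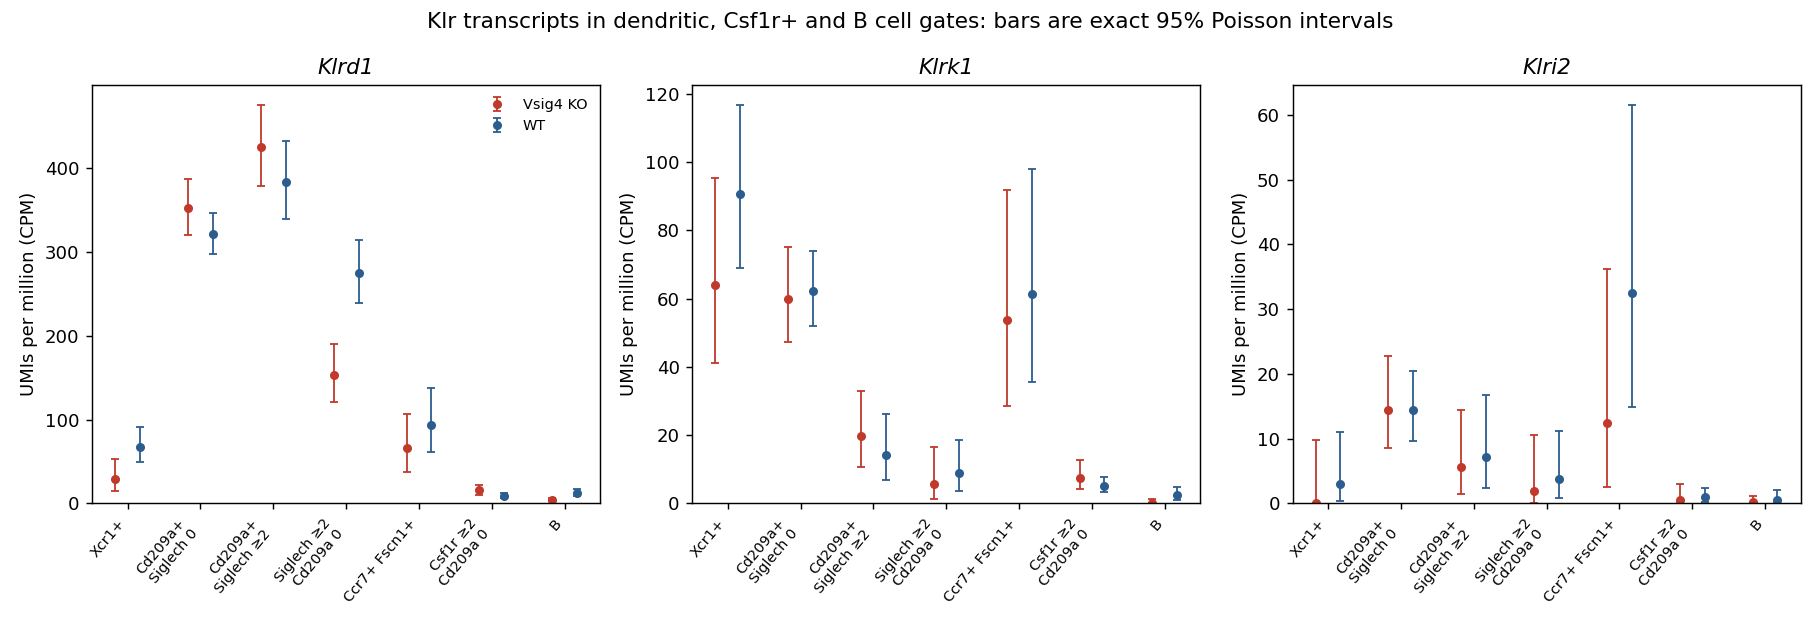
Klrd1, Klrk1 and Klri2 in CPM (linear axes from 0) in dendritic gates, Csf1r+ cells and B cells; Vsig4 KO in red left of WT in blue, bars exact 95% Poisson intervals. Klrd1 lies between 321 and 425 CPM in both Cd209a+ classes and at or under 15.6 CPM in Csf1r+ and B cells.

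Across the gates the genes fell into recurring orders. Klrb1c, Klre1, Klrd1, Klrk1 and Klri2 were highest in the NK gate when both libraries were averaged. The NK gate and the next in order overlapped within counting error in both libraries for each of them, so which Ncr1+ gate is highest is not fixed. Klri2 was lower in the ILC1 gate, at 155 CPM (74.4 to 285) in Vsig4 KO and 21.9 CPM (0.555 to 122) in WT cells, from 10 and 1 UMIs. Its WT interval lies apart from that of WT NK cells (320 to 398 CPM). Klrc1 and Klrc2 averaged highest in the ILC1 gate, where few cells were counted. Klrg1 had its highest averages in the NK and the other Ncr1+ CD3- gate, followed by CD8 T cells and then CD4 T cells (27.7 CPM in Vsig4 KO, 26.3 CPM in WT), neighbours that overlapped in both libraries. Klrd1 was the gene with the widest range of cell types, lying between 169 and 670 CPM in the NK, ILC1, other Ncr1+ CD3-, gamma-delta T, Cd209a+, CD8 T and NKT gates of both libraries. Klrb1c, Klrc1, Klrc2 and Klrg1 each had at most 1.04 CPM in the Cd209a+ gate.

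Over the 10 gates of both libraries (20 points that share libraries and depths), the profiles of the genes were set against 9008 genes by Pearson's r of log2(CPM + 10), as a description. Klrb1c, Klrc2 and Klre1 were close to each other and to Spry2, with r of 0.979 between Klrb1c and Klrc2 and 0.982 between Klrc2 and Klre1. Klrc1 was most like Xcl1, Samd3 and Ctsw (0.965, 0.961 and 0.960). Klrg1 had the lowest best value of the 8, with Cdca7l (0.853), Jade2 and Prf1 (0.845 each) first. Klrk1 was most like Chst11, Enpp4 and Klre1 and Klri2 most like Aoah, Cemip2 and Adamts14, with r between 0.929 and 0.939.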

How the data were processed

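Live CD45+ liver cells were profiled with the 10x 5′ v1.1 kit, per the labels' protocols. The deposited values are UMI counts per gene and cell, unnormalized, made by the authors with Cell Ranger 7.1.0 on mm10, per the submitters' processing notes. Barcodes with at least 200 genes, 500 UMIs and at most 10% mitochondrial UMIs were kept (5746 Vsig4 KO, 6872 WT). Scrublet (scanpy 1.11.5) marked 5 and 0 doublets by its own threshold, so 264 and 378 cells with the highest scores were removed, at 0.8% per 1000 barcodes. Cells were gated on raw UMIs, and the 8 genes, the lists and the gates were chosen with earlier results of these data known. List genes past 1.5-fold in the NK, ILC1 or CD8 T gate were to be named, up to 4 a list. CPM, exact Poisson, Clopper-Pearson and conditional binomial intervals were computed with scipy, and ratios were tested on simulated data. No model was fitted, and there are no replicates. Alternatives covered doublets, mitochondrial limits, gates, scaling, thinning depth and UMI minimum; the Siglech split, the added dendritic and Csf1r gates, the removal of cells with Lyz2, Csf1r, C1qa or Ly6d UMIs and 2 gates for Ncr1+ cells were chosen after seeing the data. A CD8 T cell split and the values of a few genes are not reported here.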

Additional observations from a re-analysis of the deposited data

Results flagged for a closer look

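Klrb1c was past 1.5-fold in opposite directions in 2 T cell gates, with a ratio of Vsig4 KO to WT of 3.37 in CD8 T cells, from 19 and 5 UMIs, and of 0.490 in gamma-delta T cells, from 32 and 69 UMIs. Klrg1 had ratios of 1.97 in NK cells and 2.38 in CD8 T cells, against 0.189 in the NKT gate, where it rested on 6 Vsig4 KO and 20 WT UMIs. These differences between cell types were not tested, since each genotype is 1 library. NK and gamma-delta T markers moved with genotype in the NKT gate. The NK marker Gzma moved with genotype in the CD8 T and gamma-delta T gates. Eomes was near level in the CD8 T gate (56.7 and 57.1 CPM). In the gamma-delta T gate Eomes went against Gzma, from 13 and 6 UMIs. The part of these markers in these values was not tested.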

How the results depend on the processing

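No paired analysis was possible because each genotype has 1 library. Asking for at least 50 UMIs rather than 20 left 597 genes past 1.5-fold in the NK, 73 in the ILC1, 286 in the other Ncr1+ CD3-, 662 in the NKT, 415 in the gamma-delta T, 596 in the CD8 T, 478 in the cDC1 and 592 in the Cd209a+ gate, since fewer genes were read; with 20 UMIs the counts were 1515, 341, 1093, 1655, 1401, 1335, 1492 and 1249 in that order. The summed level of the 8 genes had 64 alternatives, of which 59 stayed within the counting interval. The exceptions were a mean over cells, giving 0.998 in the other Ncr1+ CD3-, 1.02 in the gamma-delta T and 0.889 in the B cell gate, and the NKT gate by Trav11 (1.96) or by Ncr1 (1.14). Of 372 alternatives for single genes, 358 stayed within the interval, 11 moved and 3 turned: Klre1 in NKT cells by Trav11 (1.87), and Klrg1 there by Trav11 (2.85) and by Ncr1 (1.1). The Klrg1 value by Trav11 rests on fewer than 20 UMIs. For the moved and turned values outside the gating itself, the cause was not tested. The Klrc1 ratio in the NK gate lay between 1.40 and 1.68 over its alternatives. Of 160 shares of cells with a UMI, 61 moved past their interval at 2000 UMIs, a deeper thinning that detects more molecules. As a share of cells, a UMI of 0 in the ILC1 and Xcr1+ gates limits little, as these hold few cells. As a level, 0 UMIs of Klrb1c or Klrc1 in the Xcr1+ gate allowed up to 9.84 CPM in Vsig4 KO and 5.66 CPM in WT cells.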

Other observations

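Lectins next to the 8 genes were also read in dendritic cells. Klri1, which encodes the inhibitory partner of KLRE1, was at 9.33 CPM in Vsig4 KO and 14.2 CPM in WT Cd209a+ cells, against 11.0 and 4.32 CPM in the NK gate. In the Xcr1+ gate it gave 2 Vsig4 KO and 14 WT UMIs. Klrb1b was at 26.0 and 31.1 CPM in the Cd209a+ gate and at 18.7 and 35.3 CPM in the Xcr1+ gate. Klrb1c, a near relative of Klrb1b, gave 0 UMIs in both gates of both libraries.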
